A study of Mus musculus with 6 samples.

Results

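The genes described here are 9 genes of retinoid transport, storage, synthesis and clearance in mouse liver, *Cyp26a1*, *Cyp26b1*, *Rbp4*, *Ttr*, *Lrat*, *Dhrs3*, *Rdh10*, *Aldh1a1* and *Aldh1a2*. They were found by symbol among the 16123 genes of the deposited expression table, which lists 9 of 9. They were selected on earlier results for the KO and WT values of this same table, so every difference between genotypes given for them is a description and carries no test. The samples were 6 polyA RNAseq libraries of liver from male mice about 2 months old, 3 WT and 3 KO. WT mice were of strain C57BL/6Rj. KO mice were C57BL/6JRj-Txndc5<em2Mdnp>/Ciba, a CRISPR-Cas9 line from 1 founder that lacks exon 3 of *Txndc5*, a protein disulfide isomerase of the endoplasmic reticulum, in all tissues. Both genotypes ate a purified chow diet for 4 weeks and were fasted for 16 h, and each library held pooled liver RNA of 3 mice.

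Liver takes up dietary vitamin A as retinyl ester, hydrolyses it to retinol in hepatocytes and passes much of it to stellate cells, where lecithin retinol acyltransferase (*Lrat*) esterifies it again for storage in lipid droplets. Retinol leaves the liver bound to retinol-binding protein 4 (*Rbp4*), which travels in plasma in a complex with transthyretin (*Ttr*). Within cells, retinol dehydrogenase 10 (*Rdh10*) oxidises retinol to retinal, *Dhrs3* reduces retinal back to retinol, and the retinal dehydrogenases *Aldh1a1* and *Aldh1a2* form retinoic acid. Retinoic acid binds nuclear receptors of the RAR family, which sit as heterodimers with RXR on direct repeats of a short half-site. The CYP26 cytochromes P450 hydroxylate retinoic acid and so remove it, and *Cyp26a1* is a textbook gene that retinoic acid induces.

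The promoter of *Cyp26a1* shows such a repeat. It is printed beside that of *Rarb*, a receptor gene that retinoic acid also induces, because these were the windows of the retinoid genes that held a repeat with 5 bases between the half-sites. The letters come from RefSeq promoter windows on GRCm38.p6, 250 bases before to 50 bases after each start, read 5′ to 3′ on the gene's strand, with the half-sites in capitals.
Cyp26a1, chr19:37697770-37697799, plus strand: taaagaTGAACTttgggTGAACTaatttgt
Rarb, chr14:16575506-16575535, minus strand: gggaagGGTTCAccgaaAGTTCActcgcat
The half-sites searched on both strands were AGGTCA (on the other strand this reads TGACCT), its variant AGTTCA (likewise TGAACT), its variant GGGTCA (likewise TGACCC) and its variant GGTTCA (likewise TGAACC). In *Cyp26a1* both half-sites were the reverse complement of AGTTCA, so that the repeat lay on the strand opposite to the gene, and its first printed half-site began at position -32 from the RefSeq start. In *Rarb* the repeat lay on the gene's own strand and began at position -53. Of 32851 promoter windows of mouse genes, 0.0974% held a repeat with 5 spacer bases and 0.268% one with 2 spacer bases.

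Promoter windows were found for 7 of the 9 genes, 11 windows in all, and *Cyp26a1* was the 1 gene whose window held a repeat with 5 spacer bases. A repeat with 2 spacer bases was in 0 of the 11 windows. *Cyp26b1*, whose genotype values differed most among the 9 genes, had no repeat of either spacing in its window. The 152 bases before its outermost annotated start at position 84593908 are printed for comparison with *Cyp26a1*, with the letters TATAAA in capitals.
Cyp26b1, chr6:84593909-84594060, minus strand: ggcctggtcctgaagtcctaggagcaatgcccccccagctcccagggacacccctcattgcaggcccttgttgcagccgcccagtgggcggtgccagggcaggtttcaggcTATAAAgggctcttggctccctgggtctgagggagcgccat
The stretch was 65.1% G or C with 3 CG pairs. TATAAA stood in it 1 time, 35 bases before that start. On either strand, 13.6% of all promoter windows held these letters. A match in letters is a description of the sequence, and the data hold no measurement of binding there.

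The deposited table gives 1 expression value per genotype, on the scale of read counts divided by size factors (1 scaling number per library). Each is the authors' value over 3 libraries, and no SD or n can be attached to it. For weakly expressed genes the reads of each library could be worked out from these values, since a gene's mean over the 6 libraries is a sum of whole reads, each worth a fixed amount per library. This settled 5 of the 9 genes, *Cyp26a1*, *Cyp26b1*, *Lrat*, *Rdh10* and *Aldh1a2*. The other 4, *Rbp4*, *Ttr*, *Dhrs3* and *Aldh1a1*, were too abundant and have genotype values alone. Which pool each recovered library came from is unknown, so they are named by genotype and a letter in order of falling size factor, from KO-a (1.31) to KO-c (0.886) and from WT-a (1.22) to WT-c (0.818). "Normalized reads" below are reads divided by the size factor.

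Facts of the series that bear on these values are few. Each library gave between 44040160 and 46050030 clean reads, of which 91.6% to 93.7% mapped. The size factors spanned a wider relative range, from 0.818 to 1.31. *Txndc5*, the deleted gene, had 2697 in WT but 90.8 in KO, as the labels state. KO-a and WT-a stood apart from the other 4 libraries. On the 6585 settled genes with a summed level of at least 60 normalized reads, the first principal component carried 53.2% of the variance, with KO-a and WT-a on the positive side and the other 4 on the negative side. KO-a also carried adipocyte markers, with 46.5 normalized reads of *Adipoq* against at most 3.86 in any other library. Values for the 5 settled genes are therefore given with and without KO-a and WT-a. Nothing in the labels says what sets these libraries apart.

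Per kilobase of gene length, the 9 genes spanned 5 orders of magnitude. The carriers were highest, with mean values per kb of 96265 for *Ttr* and 91681 for *Rbp4*. *Aldh1a1* followed at 4348 and *Dhrs3* at 1739. *Rdh10* stood at 48.7, *Cyp26b1* at 26.6, *Lrat* at 7.05, *Cyp26a1* at 4.18 and *Aldh1a2* at 0.777. The plasma carriers thus lay far above the storage enzyme *Lrat* and above both hydroxylases. Among the settled genes, *Rdh10* lay above *Cyp26b1* in every library of the same genotype, at 33.7 to 58.7 against 13.5 to 20.6 normalized reads per kb in WT and at 44.3 to 59.8 against 30.6 to 40.8 in KO. *Lrat* and *Cyp26a1* were neighbours whose ranges overlapped, at 5.53 to 12.5 against 3.21 to 6.87 in WT and at 4.64 to 7.83 against 1.27 to 5.42 in KO. *Aldh1a2* lay below *Cyp26a1* in both genotypes, at most 2.01 in WT and 0.853 in KO. For *Ttr*, *Rbp4*, *Aldh1a1* and *Dhrs3* the spread between libraries is unknown, so the order of *Ttr* and *Rbp4*, which were 1.05 times apart, cannot be judged.

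**Figure D1:**
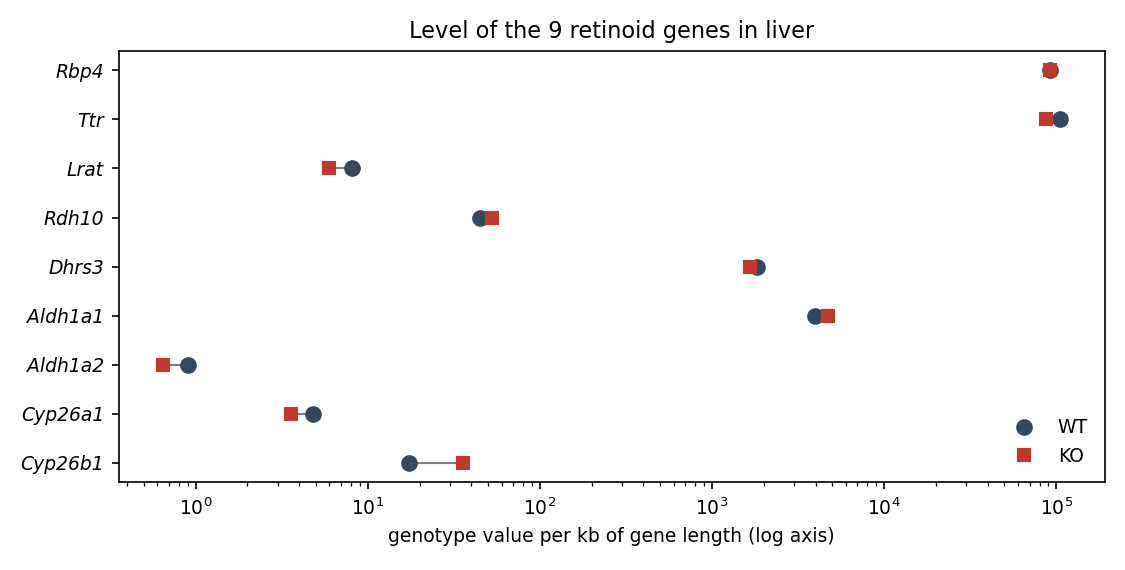
Genotype value per kb of gene length, on a log axis, for the 9 genes in order of role, with circles for WT, squares for KO and a line joining them. The carriers *Rbp4* and *Ttr* sit near 91681 and 96265, *Aldh1a2* sits at 0.777, and the widest gap between the genotypes is that of *Cyp26b1*, from 17.3 to 35.9.

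The carriers of retinol in plasma have genotype values alone, so their ratios cannot be set against a spread between libraries. *Rbp4* (NCBI Gene 19662, chr19:38116629-38125281, minus strand, GRCm38) was read at 85867 in WT and at 85577 in KO (log2 ratio KO over WT -0.0049). *Ttr* (NCBI Gene 22139), which also carries thyroid hormone, had 129820 in WT and 108340 in KO (log2 ratio -0.26). Over the 11367 genes whose mean of both values reached 10, the median log2 ratio was -0.05, so *Rbp4* lay close to the typical gene and *Ttr* below it.

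Esterification was represented by *Lrat* (NCBI Gene 79235, chr3:82892579-82903973, minus strand). It had 67.0, 29.6 and 37.9 normalized reads in WT-a, WT-b and WT-c and 41.9, 25.1 and 24.8 in KO-a, KO-b and KO-c. The a library was the highest of its genotype in both WT and KO, and the genotypes overlapped. The same order, with the a library highest in each genotype, held for 39.7% of all settled genes with a summed level of at least 60. Means were 44.8 ± 19.6 in WT and 30.6 ± 9.78 in KO (SD, n = 3 each), 1.46 times higher in WT, and the authors' values gave a log2 ratio of -0.44. Without KO-a and WT-a the means were 33.7 in WT and 24.97 in KO, and the KO libraries then lay below the WT libraries. A rank of this kind, both KO libraries below both WT libraries, was found for 19.3% of settled genes.

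The interconversion of retinol and retinal was represented by 2 enzymes that act in opposite directions. *Rdh10* (NCBI Gene 98711, chr1:16105774-16133734, plus strand), the oxidising enzyme, had 135, 77.3 and 91.7 normalized reads in WT-a, WT-b and WT-c and 137, 127 and 102 in KO-a, KO-b and KO-c. WT-a lay within the range of the KO libraries, so the genotypes overlapped. The means were 101 ± 29.9 in WT and 122 ± 18.4 in KO (SD, n = 3 each), and the authors' values gave a log2 ratio of 0.24. Without KO-a and WT-a the means were 84.5 in WT and 115 in KO, 1.35 times higher in KO, and the genotypes no longer overlapped. Both KO libraries lay above both WT libraries for 16.7% of settled genes. *Dhrs3* (NCBI Gene 20148, chr4:144892827-144928209, plus strand), the reducing enzyme, had 2609 in WT and 2381 in KO (log2 ratio -0.13). Its mean value per kb was 35.7 times that of *Rdh10*.

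The retinal dehydrogenases, which form retinoic acid from retinal, had mean values per kb that were 5593 times apart. *Aldh1a1* (NCBI Gene 11668, chr19:20492715-20643465, plus strand) had 8110 in WT and 9559 in KO (log2 ratio 0.24). Its neighbour *Aldh1a7* (chr19:20692953-20727562, minus strand) is a close copy, had 928 in WT and 1189 in KO, and the split of reads between both genes in the authors' counting is uncertain. *Aldh1a2* (NCBI Gene 19378, chr9:71215789-71296243, plus strand) was at the limit of detection. It had 2, 4 and 2 reads in WT-a, WT-b and WT-c and 0, 2 and 0 reads in KO-a, KO-b and KO-c. The total was 8 reads in WT (exact 95% Poisson interval 3.45 to 15.8) and 2 reads in KO (0.242 to 7.22). These intervals cover counting error only. KO-b, with 1.93 normalized reads, lay above WT-a, with 1.63, so the genotypes overlapped. The means were 2.88 ± 1.51 normalized reads in WT and 0.644 ± 1.11 in KO (SD, n = 3 each), 4.47 times higher in WT, and the authors' values gave a log2 ratio of -0.47. Without KO-a and WT-a the means were 3.50 in WT and 0.965 in KO, and both KO libraries then lay below both WT libraries. This rank was found for 19.3% of settled genes with a summed level of at least 60, a level that *Aldh1a2* does not reach.

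Of the 9 genes, the hydroxylase *Cyp26b1*, which clears retinoic acid, showed the widest difference in the genotype values. In recovered reads the weakly read *Aldh1a2* differed by more, from 10 reads in all. *Cyp26b1* (NCBI Gene 232174, chr6:84571414-84593908, minus strand) had 70.2, 96.7 and 63.6 normalized reads in WT-a, WT-b and WT-c, from 86, 85 and 52 reads. In KO-a, KO-b and KO-c it had 144, 183 and 192, from 189, 190 and 170 reads. Every KO library lay above every WT library. The means were 76.8 ± 17.5 in WT and 173 ± 25.6 in KO (SD, n = 3 each), 2.25 times higher in KO. The authors' values were 81.3 in WT and 169 in KO (log2 ratio 1.05), which is their ratio shrunken toward 0.

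The difference in *Cyp26b1* was as large without the libraries that stood apart. Without KO-a and WT-a the means were 80.1 in WT and 188 in KO, 2.34 times higher in KO. With each library left out in turn, the log2 difference on log2(normalized reads + 1) ranged from 1.05 to 1.35, against 1.17 ± 0.22 (SE) over all 6 libraries. The genotypes could not come to overlap in this way, since they were already apart over all 6 libraries. The deposited mean allowed 17 sets of reads. Among them 1 set, with 772 reads in all, also gave the deposited ratio, within 1.21e-05 on the log2 scale, while the next nearest was 0.0403 away.

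Read against all genes, the share of settled genes with every KO library above every WT library was 3.28%, and 2.25% had every KO library below. *Cyp26b1* was the 1 of the 3 settled members with a summed level of at least 60 (*Cyp26b1*, *Rdh10* and *Lrat*) whose genotypes did not overlap. By genotype values, 1 of the 7 members whose mean reached 10 had a log2 ratio above 0.5, *Cyp26b1*, beside 2.48% of all such genes. A log2 ratio below -0.5 was found for 0 of the 7, beside 7.90% of all such genes. The median log2 ratio of the 7 was -0.0049. By log2 ratio *Cyp26b1* ranked 14 from the top among the 11367 genes, of which 18 had a log2 ratio over 1. Since these values chose the genes, nothing is read from these counts.

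*Cyp26a1* (NCBI Gene 13082, chr19:37697798-37701536, plus strand) was weakly expressed and did not share the pattern of *Cyp26b1*. It had 7, 9 and 10 reads in WT-a, WT-b and WT-c and 6, 10 and 2 reads in KO-a, KO-b and KO-c. KO-b, with 9.65 normalized reads, lay above WT-a, with 5.72, so the genotypes overlapped. In normalized reads the means were 9.39 ± 3.34 in WT and 5.49 ± 3.78 in KO (SD, n = 3 each). The totals were 26 reads in WT (exact 95% Poisson interval 17.0 to 38.1) and 18 in KO (10.7 to 28.4). Without KO-a and WT-a the means were 11.2 in WT and 5.96 in KO, and both KO libraries then lay below both WT libraries, the rank found for 19.3% of settled genes with a summed level of at least 60. The third member of the family, *Cyp26c1*, lies next to *Cyp26a1* (chr19:37685581-37693398, plus strand) and was read once, in WT-a.

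The balance of both hydroxylases lay toward *Cyp26b1* in each of the 6 libraries. Normalized reads per kb of *Cyp26b1* were 4.66, 3.58 and 1.97 times those of *Cyp26a1* in WT-a, WT-b and WT-c. In KO-a, KO-b and KO-c they were 11.9, 7.20 and 32.2 times as high. The KO ratios lay above the WT ratios in these libraries, and the highest of them rests on the 2 reads of *Cyp26a1* in KO-c. The reads of *Cyp26b1*, a gene chosen on these values, already lay apart by genotype, and the ratio carries that difference over. No share over all genes was computed for such ratios, so nothing further is read from them.

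**Figure D2:**
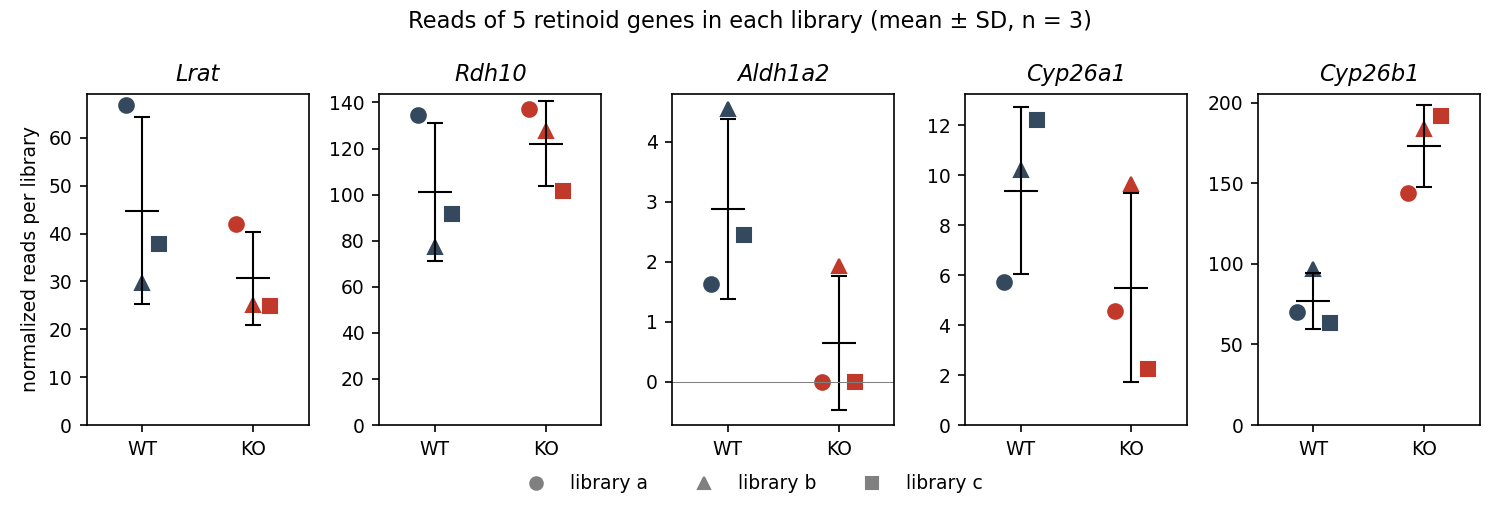
Normalized reads in each library of the 5 genes whose reads could be settled, by genotype, with a circle for library a, a triangle for b and a square for c, and the mean ± SD of 3 libraries. Letters do not pair WT with KO libraries. *Cyp26b1* lies between 63.6 and 96.7 in WT and between 144 and 192 in KO, while over all 6 libraries the genotypes overlap for *Lrat*, *Rdh10*, *Aldh1a2* and *Cyp26a1*, though not without KO-a and WT-a. Without these, 16.7% of settled genes with a summed level of at least 60 have both KO libraries above both WT libraries, and 19.3% below.

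The genes most like each settled member over the 6 libraries were sought among the settled genes with a summed level of at least 60, by Pearson's r of log2(normalized reads + 1). The values rest on 6 libraries, 2 of which stood apart, and are given as a description. *Cyp26b1* was most like *Nod1* (r = 0.998), *Cep131* (r = 0.992) and *Fcgr4* (r = 0.984), whose genotype values had log2 ratios of 0.47, 0.56 and 0.54. *Lrat* was most like *Otud4*, *Zmym5* and *Fam208a* (r = 0.995, 0.994 and 0.994), whose log2 ratios were -0.87, -0.75 and -1.16. These directions follow from choosing genes by their likeness to the member over the same libraries. *Rdh10* was most like *Cadps2*, *Ahcyl2* and 4931406P16Rik (r = 0.993, 0.993 and 0.992). The weakly read *Cyp26a1* was most like *Cystm1*, *Ankrd39* and *Mmp17* (r = 0.989, 0.987 and 0.982), and *Aldh1a2* was most like 2210013O21Rik, *Hspbap1* and *Il17rb* (r = 0.970 each). None of these 15 genes belongs to the retinoid lists below, but only 16 genes of those lists were among the 6585 settled genes searched. Between the members themselves, the 10 values of r ranged from -0.69 for *Lrat* with *Cyp26b1* to 0.87 for *Cyp26a1* with *Aldh1a2*, and r was -0.54 for *Cyp26a1* with *Cyp26b1*.

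The other genes of the pathway were described in the same way. Of 54 further retinoid genes in 8 lists by role, 49 were in the table and 37 had a mean that reached 10. A log2 ratio above 0.5 was found for 0 of the 37, beside 2.48% of all such genes, and below -0.5 for 1, *Fabp5*, beside 7.90%. Their median was -0.02. Reads were settled and tested for 16 of the 49, and the other 33 were not tested. In limma, fitted over all 6585 settled genes with Benjamini-Hochberg adjustment, 0 of the 16 had an adjusted p under 0.05 and 0 an unadjusted p under 0.05. Over all settled genes 1 passed, or 0.0152%, and 112 had an unadjusted p under 0.05, so the test made few calls on any genes here. Every KO library lay above, or every KO library below, the WT libraries for 0 of the 16, beside 3.28% and 2.25% of all settled genes.

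Among the binding and uptake proteins, *Fabp5*, a fatty acid-binding protein that also carries retinoic acid to the nucleus, had 106, 132 and 193 normalized reads in WT-a, WT-b and WT-c and 125, 54.1 and 73.4 in KO-a, KO-b and KO-c. KO-a lay within the WT range. The log2 ratio of the genotype values was -0.66, and limma gave a log2 difference of -0.81 ± 0.41 (SE) with an adjusted p of 0.9997 over all settled genes. The most abundant gene of this list was *Stra6l*, the liver receptor for retinol-binding protein, at 1508 in WT and 1385 in KO (log2 ratio -0.12). The list also held *Rbp2*, *Rbp7* and *Crabp1*, each with 1 read in all.

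The 4 lipases and transferases acting on retinyl esters whose mean reached 10 had log2 ratios between -0.10 and 0.13, and the most abundant, the lipase *Pnpla2*, had 6795 in WT and 6693 in KO. The other retinol and retinal oxidoreductases held 12 genes whose mean reached 10, with log2 ratios from -0.27 to 0.47 and a median of 0.04. The most abundant of them was *Adh1*, a cytosolic alcohol dehydrogenase that oxidises retinol, at 32573 in WT and 36531 in KO (log2 ratio 0.17). Of the other aldehyde dehydrogenases listed under synthesis of retinoic acid, *Aldh8a1* was the most abundant, at 3650 in WT and 3655 in KO. *Aldh1a7* had a log2 ratio of 0.36. Their activity on retinal was not measured here. *Cyp2c39*, a retinoic acid hydroxylase outside the CYP26 family, had 26.0 in WT and 23.6 in KO. The carotenoid list of *Bco1*, *Bco2* and *Scarb1* had log2 ratios from -0.14 to 0.20, and its most abundant gene, the scavenger receptor *Scarb1*, had 6180 in WT and 6160 in KO.

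The receptors of retinoic acid and their corepressors had 8 genes with log2 ratios from -0.19 to 0.27 and a median of 0.01. *Rxra*, the partner that RAR and other nuclear receptors share in hepatocytes, was the most abundant, at 10240 in WT and 12078 in KO (log2 ratio 0.24). Genes known to respond to retinoic acid, 12 in the list, had 9 in the table and 6 whose mean reached 10. The log2 ratios of these 6 had a median of -0.09, and 0 of them passed 0.5 in either direction. Their most abundant gene was *Tgm2*, tissue transglutaminase, at 2423 in WT and 2355 in KO. *Rarb*, whose promoter repeat is printed above with that of *Cyp26a1*, had 28.6, 10.2 and 24.5 normalized reads in WT-a, WT-b and WT-c and 29.0, 9.65 and 13.5 in KO-a, KO-b and KO-c, so that the genotypes overlapped.

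**Figure D3:**
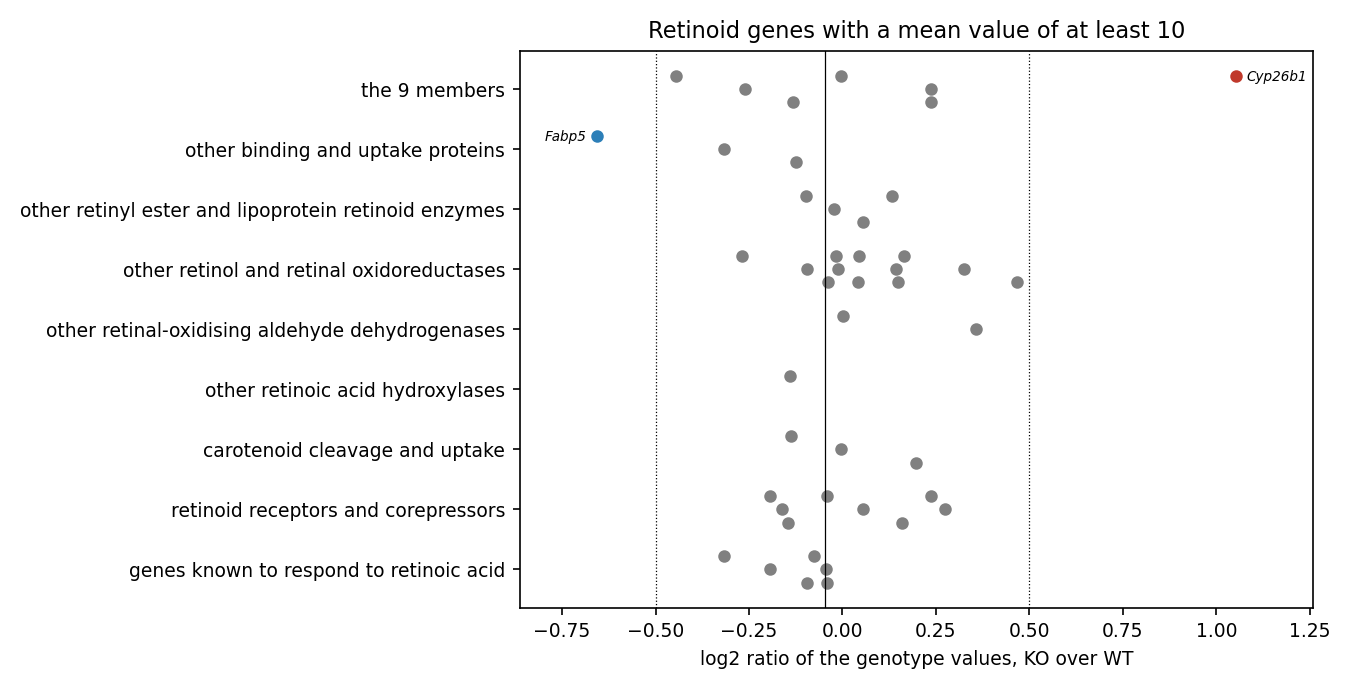
Log2 ratio of the genotype values (KO over WT) for the 7 members and 37 other retinoid genes whose mean reached 10, 1 point per gene and 1 row per role. Dotted lines mark -0.5 and 0.5 and the solid line the median of all such genes, -0.05. A gene held by more than 1 list is drawn in each. *Cyp26b1* at 1.05 and *Fabp5* at -0.66 are the 2 named points outside the dotted lines.

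Since retinoids are stored in stellate cells, and *Lrat* is one of their genes, the markers of liver cell types are given beside these values. In bulk tissue, fewer cells of a type and less RNA per cell cannot be told apart. Of 20 stellate cell markers, 19 had a mean that reached 10, with a median log2 ratio of -0.08, 3 above 0.5 and 4 below -0.5. Over all genes whose mean reached 10, the shares were 2.48% above and 7.90% below, and they stand beside the counts of every marker list here. The most abundant of them was *Ecm1*, an extracellular matrix protein, at 4868 in WT and 4328 in KO. *Rgs5*, a regulator of G protein signalling of mural cells, had the lowest ratio, -0.98, with 251, 125 and 63.6 normalized reads in WT-a, WT-b and WT-c and 109, 37.7 and 38.4 in KO-a, KO-b and KO-c, so that the genotypes overlapped. *Lhx2*, a transcription factor of stellate cells, had 61.2, 56.9 and 50.1 normalized reads in WT-a, WT-b and WT-c and 77.0, 97.5 and 85.8 in KO-a, KO-b and KO-c. Every KO library lay above every WT library, a rank found for 3.28% of all settled genes, and limma gave an adjusted p of 0.9997. The summed level of the 14 stellate markers with settled reads was 1061 to 1315 normalized reads in WT and 822 to 1450 in KO. The KO range thus contained the WT range, and the part of stellate cells in the values of *Lrat* or *Cyp26b1* was not tested.

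Of the other cells that line the sinusoids, 12 endothelial markers had a median log2 ratio of -0.04, with 0 above 0.5 and 1 below -0.5, and their most abundant gene, the nuclease *Dnase1l3*, had 830 in WT and 806 in KO. The 10 Kupffer cell markers had a median of 0.13, with 2 above 0.5 and 0 below -0.5, and the complement gene *C1qb*, their most abundant, had 1050 in WT and 1137 in KO. The macrophage marker *Adgre1* had 81.6, 78.5 and 72.1 normalized reads in WT-a, WT-b and WT-c and 119, 126 and 97.1 in KO-a, KO-b and KO-c, also without overlap, and an adjusted p of 0.9997 in limma. The pericentral hepatocyte list, with 10 genes, had a median of 0.15 and 0 genes past 0.5, and *Cyp2e1* was its most abundant gene at 208753 in WT and 240352 in KO. The 8 periportal markers had a median of -0.13, 0 genes past 0.5 and *Ass1*, a urea cycle enzyme, as their most abundant gene, at 132522 in WT and 113115 in KO. The 8 general hepatocyte markers had a median of -0.21, with 1 below -0.5, and *Alb* stood at 1329550 in WT and 1332580 in KO, so the tissue carried the defining marker of hepatocytes at a high level in both genotypes.

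Cells that a piece of liver can bring along were read at lower levels, apart from blood. The 5 red blood cell genes had log2 ratios from 0.40 to 0.79, with 3 above 0.5, and the haemoglobin gene *Hba-a1* had 55601 in WT and 82090 in KO. Bile duct markers, 5 in number, had a median of -0.02 with 1 above 0.5, and *Spp1*, the most abundant, had 122 in WT and 157 in KO. Of 4 mesothelial markers 2 had a mean that reached 10, with a median log2 ratio of -0.62, 0 above 0.5 and 1 below -0.5. The most abundant was *Upk3b*, at 30.1 in WT and 25.3 in KO. *Msln*, mesothelin, had 18.8, 28.4 and 40.4 normalized reads in WT-a, WT-b and WT-c and 14.5, 9.65 and 10.2 in KO-a, KO-b and KO-c, with an adjusted p of 0.9997 in limma. The lymphocyte markers *Cd4* and *Cd79a* had log2 ratios of -0.40 and -0.48, and *Cd4* had 52.2 in WT and 39.6 in KO. The summed level of the adipocyte markers *Adipoq* and *Plin1* was 77.0 normalized reads in KO-a and at most 10.6 in the other 5 libraries, while *Cidec*, which hepatocytes also express, had 2032 in WT and 1826 in KO. Over 34 cell type markers tested in limma, 0 had an adjusted p under 0.05 and 1, *Msln*, an unadjusted p under 0.05. Of these 34, 2 had every KO library above every WT library, *Lhx2* and *Adgre1*, beside 3.28% of all settled genes. Every KO library lay below for 1, *Msln*, beside 2.25%. The part of any of these cell types in the values of the 9 genes was not tested.

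**Figure D4:**
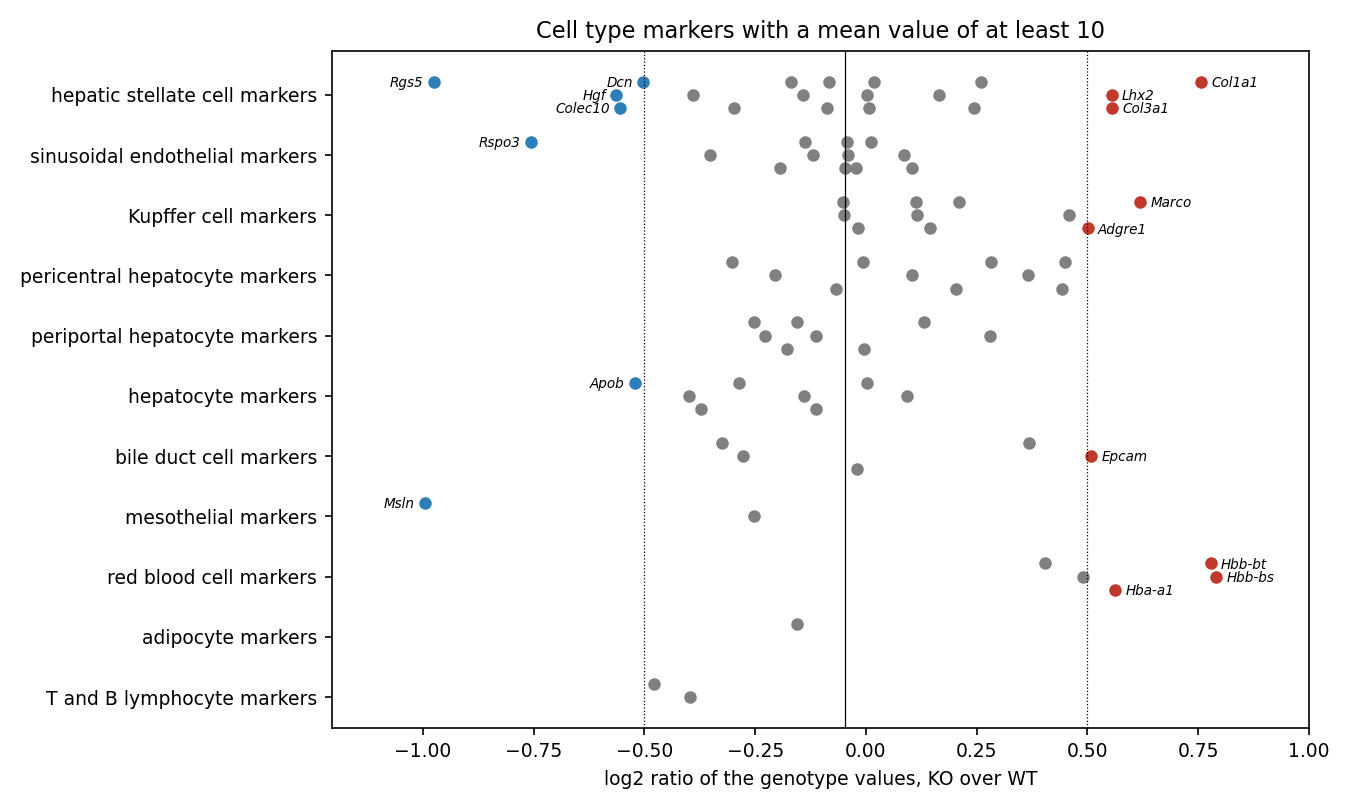
Log2 ratio of the genotype values (KO over WT) for the 82 cell type markers whose mean reached 10, 1 point per gene and 1 row per cell type. Dotted lines mark -0.5 and 0.5, and the solid line marks the median of all genes, -0.05. The 9 markers above 0.5 and the 7 below -0.5 are named, and stellate cell markers are found on both sides.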

How the data were processed

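The 6 libraries were assigned to WT or KO by their sample labels. The members and gene lists were chosen with earlier results of these data known. The authors deposited 1 expression signal per gene and genotype, combining 3 libraries on the scale of counts divided by size factors. According to the submitters' processing notes, HISAT2, StringTie, Cufflinks, GATK, Bowtie2, RSEM and build mm10 were used, with roles and versions not given in the sources used here. The authors named DESeq2 for their comparison. Its log2 fold changes, p-values and direction calls, also deposited, were not used. The shrunken ratio is built into the deposited values. Percent values of mapping and ribosomal RNA were deposited per library (0.26% to 0.69% ribosomal). Splicing totals were not used. 0 columns of unlabelled per-sample values were found.

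Log2 ratios were computed from both genotype values. Lattice reduction and enumeration recovered reads per library from the mean of each gene. For sums up to 450, the sum alone settled 99.1% of 8370 genes, and for sums between 450 and 1500, the sum with the ratio settled 96.4% of 3086. In all, 11341 of 16123 genes were settled. Predicting the ratio needed a shrinkage model, whose parameters were fitted on 500 genes and which gave the ratio of 1672 of 1677 other genes within 0.0002. When 300 genes of known reads were made ambiguous, as *Cyp26b1* and *Rdh10* are by their sum alone, with a median of 7 sets each, 297 were settled rightly, 1 wrongly and 2 not at all. Between 431176 and 861033 reads per library were recovered. Recovery and limma were also tested on simulated data.

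limma 3.58.1 (R 4.3.3) compared genotypes on log2(normalized reads + 1) over settled genes with a sum of at least 60. The p-values measure the spread between pools. Named genes were the members, list genes past a log2 ratio of 0.5 (markers, 1) with a mean of at least 10, the most abundant gene of each list, the 3 genes most like each settled member, and *Txndc5*. *Aldh1a7*, *Rarb*, *Rgs5*, *Msln*, *Lhx2*, *Adgre1*, *Rdh9*, *Aldh1a3*, *Hoxa4*, *Hoxb4*, *Rbp2*, *Rbp7*, *Crabp1*, *Cyp26c1*, *Cd79a*, *Adipoq* and *Plin1* were named after their values were seen. Promoters came from RefSeq and gene positions from GENCODE M21, both on GRCm38. Python 3.11.15 was used. Alternatives were other pseudocounts, filters, scalings and left-out libraries.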

Additional observations from a re-analysis of the deposited data

How the results depend on the processing

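The log2 ratio of *Cyp26b1* kept its direction and stayed above 0.5 with pseudocounts of 1 and 10 and when ratios were centred on the median of all genes whose mean reached 10. The number of members past 0.5 was the same in these 3 settings, 1 above and 0 below. Of the other retinoid genes, 1 was above 0.5 after centring (*Rdh9*) and 1 without the filter on low values (*Aldh1a3*), against 0 before, and without the filter 2 were below -0.5 (*Fabp5* and *Hoxa4*) instead of 1. The number of members whose genotypes did not overlap, among the 3 settled ones with a summed level of at least 60, was 1 to 2 with single libraries left out, against 1 over all libraries. It was 2 when libraries were scaled by their total of settled reads (*Cyp26b1* and *Rdh10*). It was 3 without KO-a and WT-a (*Cyp26b1*, *Rdh10* and *Lrat*), an alternative added after the data were seen. Without KO-a alone *Lrat* and without WT-a alone *Rdh10* joined *Cyp26b1*. Over all 5 settled members, whatever their sum, also added after the data were seen, the number was 1 with all libraries, 3 without KO-b and 4 without WT-a (*Cyp26a1* and *Aldh1a2* joined in both) and 5 without KO-a and WT-a. With fewer libraries, fewer ranks have to hold for the genotypes not to overlap. Without KO-a and WT-a, 16.7% of settled genes with a summed level of at least 60 had both KO libraries above both WT libraries. Another 19.3% had both below. Shares over all genes are not given for single libraries left out, for the scaling or for lower sums. Nothing is read from these counts about the members.

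With single libraries left out, the log2 difference of *Lrat* ranged from -0.74 to -0.17, that of *Rdh10* from 0.12 to 0.52, that of *Cyp26a1* from -1.23 to -0.38 and that of *Aldh1a2* from -1.88 to -1.07. In limma, 0 other retinoid genes and 0 cell type markers had an adjusted p under 0.05 in any setting run, including the added term for KO-a and WT-a and the fit without them. The number of retinoid genes with an unadjusted p under 0.05 was 1 without KO-a or without both (*Fabp5*), 1 without WT-a (*Hoxb4*) and 0 otherwise. Depth limits *Cyp26a1* and *Aldh1a2* most, with 44 and 10 reads in all. No paired analysis was possible because the pool of each recovered library is unknown and the labels of WT and KO share only 1 number.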
